A study of Mus musculus with 12 samples.

Results

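Fam20a, Npnt and Serpini1 are 3 of the 21960 genes listed in RNA-sequencing data of PyMT mammary tumors. They were chosen by the readout itself: in the study's own comparisons of these tumors, each of the 3 was lower after doxorubicin (DOX) whether the antibody given with it was IgG1 or anti-PD-1. Because the genes were selected on that difference, their values with and without DOX are a description and carry no test. Genes around the pathways of the 3 proteins, whose values the choice did not use, were tested. The anti-PD-1 effect over both chemotherapy arms was tested as well, but it rests on the same tumor values and is not free of the choice.

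PyMT mice carry the polyoma middle T oncogene under the MMTV promoter, which is active mainly in mammary epithelium, and the animals here were female on a C57BL/6 background. RNA came from 12 snap-frozen tumors, 3 in each of 4 groups, and the labels do not say whether each tumor came from another mouse. The groups named IgG1 and anti-PD-1 (clone 4H2) got that antibody alone, from a tumor diameter of 0.6 cm, at 20 mg/kg on day 0 and at 10 mg/kg on days 6, 12 and 18. The groups named DOX/IgG1 and DOX/anti-PD-1 began at 1 cm and had 5 mg/kg DOX every week for 5 weeks, each time followed a day later by 10 mg/kg of the antibody. The sample labels give a weekly schedule of 5 weeks for every group. Tumors with DOX therefore also differ from those without it in size at the start, in the amount of antibody first given and in its timing, and for every DOX difference below these cannot be told apart.

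Levels are given in TPM, transcript abundances divided by transcript length and library total, and the number of reads behind a value is unknown. The unit is taken from the study's methods, since the values alone cannot tell TPM from FPKM, and the listed genes summed to between 609418 and 725506 in a tumor. A log2 difference is a difference between group means of log2(TPM + 1), which understates the change of low genes. The value column of DOX/IgG1 replicate 1 alone carries the word test in its header. This library listed the most genes at 0, 8104, against 6534 to 7730 in the other 11 tumors, but its 13263 genes at 1 TPM or more were not the fewest, since IgG1 replicate 1 had 13238. It was used. Differences and counts that rest on it are also given without it, whereas correlations between genes are given only with it.

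FAM20A is a pseudokinase of the secretory pathway. It binds and activates FAM20C, the kinase that phosphorylates caseins and enamel proteins on their way out of the cell, and its loss causes a disease of enamel and kidney. Nephronectin, the product of Npnt, is a basement membrane protein whose RGD motif is bound by the integrin α8β1, a pair that is needed for kidney development. Neuroserpin, the product of Serpini1, is a secreted serpin that inhibits tissue plasminogen activator, best known from neurons.

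The label of mammary tumor was checked against epithelial markers. The 10 luminal markers, led by Epcam, summed to between 2479 TPM in DOX/IgG1 replicate 1 and 4138 TPM in IgG1 replicate 1. All 10 were detected, and Krt8 and Krt18, keratins of luminal cells, had means of 353 and 573 TPM over the 12 tumors. The epithelial label thus had its markers in every group.

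Promoters are shown because the 3 genes were chosen for being lower in the same groups, and because Serpini1 starts head to head with Pdcd10, a gene of the cerebral cavernous malformation complex that could share a promoter region with it. The RefSeq windows (GRCm38.p6) run from 250 bases before to 50 after the start site, written 5′ to 3′ along the gene, at chr11:109722189-109722488 (minus) for Fam20a, chr3:132950242-132950541 (minus) for Npnt, chr3:75557243-75557542 (plus) for Serpini1 and chr3:75556803-75557102 (minus) for Pdcd10. Capitals mark the CCAAT box (letters CCAAT), the GC box (letters GGGCGG) and the STAT site (letters TTCNNNGAA), found on either strand, so that some matches read as the reverse complement, and no 2 matches overlap. The RefSeq start of Serpini1 lies before that of the GENCODE gene, whose start at 75557547 is outside the window. All 4 names matched, Npnt with 2 entries, of which 1 is shown.
Fam20a: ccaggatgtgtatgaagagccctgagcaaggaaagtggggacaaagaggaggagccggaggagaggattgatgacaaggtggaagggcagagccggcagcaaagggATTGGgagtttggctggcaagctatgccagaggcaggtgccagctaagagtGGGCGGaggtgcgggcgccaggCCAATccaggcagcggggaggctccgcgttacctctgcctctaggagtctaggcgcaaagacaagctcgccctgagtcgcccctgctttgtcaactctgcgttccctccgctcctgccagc
Npnt: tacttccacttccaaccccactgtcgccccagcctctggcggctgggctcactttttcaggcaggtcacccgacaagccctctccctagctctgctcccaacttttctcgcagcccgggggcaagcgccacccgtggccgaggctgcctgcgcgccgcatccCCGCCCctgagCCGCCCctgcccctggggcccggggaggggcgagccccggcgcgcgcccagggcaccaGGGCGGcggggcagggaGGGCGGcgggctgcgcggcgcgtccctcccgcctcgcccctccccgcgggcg
Serpini1: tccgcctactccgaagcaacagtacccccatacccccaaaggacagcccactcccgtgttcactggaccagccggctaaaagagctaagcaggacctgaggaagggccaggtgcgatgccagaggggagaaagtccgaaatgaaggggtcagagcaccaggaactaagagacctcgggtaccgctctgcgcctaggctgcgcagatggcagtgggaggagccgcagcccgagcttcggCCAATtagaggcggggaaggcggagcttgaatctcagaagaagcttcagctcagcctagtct
Pdcd10: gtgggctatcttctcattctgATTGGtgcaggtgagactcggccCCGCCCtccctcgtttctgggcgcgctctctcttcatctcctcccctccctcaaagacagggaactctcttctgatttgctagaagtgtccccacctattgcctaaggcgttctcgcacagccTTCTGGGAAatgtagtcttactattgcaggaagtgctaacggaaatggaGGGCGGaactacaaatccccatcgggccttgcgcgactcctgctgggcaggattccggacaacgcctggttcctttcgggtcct

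Fam20a held CCAAT at -144 to -140 on the opposite strand and at -71 to -67, and GGGCGG at -93 to -88. Npnt held GGGCGG 4 times, at -88 to -83 and -77 to -72 on the opposite strand and at -19 to -14 and -2 to 3, in a window with 76.7% G and C and 32 CpG. Serpini1 held a single CCAAT at -12 to -8 and no GGGCGG. Positions count from the start site, with -1 for the base before it and 0 for the base at it. CCAAT is found in 37.4% and GGGCGG in 35.7% of 32851 windows of the same length, and no motif searched was in all of Fam20a, Npnt and Serpini1. TATAAA (in 13.6% of windows), CACGTG (7.15%), TGANTCA (7.81%) and TTGCGCAA (0.183%) were in none of the 4 windows, and TTCNNNGAA (8.3%) was in that of Pdcd10. The G and C content was 61.7% in Fam20a, 60.0% in Serpini1 and 56.0% in Pdcd10, against a median of 52.7%. A match is a string of letters, and no factor binding was measured.

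Fam20a (ENSMUSG00000020614, chromosome 11, 109669749 to 109722279, minus strand, GRCm38) was the most abundant of the 3 genes. Its level was 237, 219 and 233 TPM in the IgG1 tumors and 296, 137 and 359.6 TPM in the anti-PD-1 tumors. With DOX/IgG1 it was 82.2, 122 and 64.55 TPM, and with DOX/anti-PD-1 it was 103, 131 and 80.6 TPM. All 6 tumors with DOX lay below all 6 without it, but by a small gap, since DOX/anti-PD-1 replicate 2 (131 TPM) was close to anti-PD-1 replicate 2 (137 TPM). The IgG1 tumors lay close together (229 ± 9.45 TPM, SD, n = 3), whereas the anti-PD-1 tumors were spread widely (264 ± 115 TPM). From the lowest mean to the highest the order was DOX/IgG1 (89.7 ± 29.6 TPM), DOX/anti-PD-1 (105 ± 25.5 TPM), IgG1 and anti-PD-1. The lower pair of groups differed by less than their spread, and so did the upper pair. The log2 difference with DOX was -1.39 (SE 0.27) beside IgG1 and -1.24 (SE 0.36) beside anti-PD-1, and the mean TPM without DOX was 2.56 and 2.51 times that with it.

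Npnt (ENSMUSG00000040998, chromosome 3, 132881745 to 132950291, minus strand) had 102, 184.5 and 129 TPM after IgG1 alone and 142, 218 and 193 TPM after anti-PD-1 alone. The level was 12.9, 41.2 and 36.7 TPM with DOX/IgG1 and 70.25, 122 and 42.1 TPM with DOX/anti-PD-1. Within each antibody, every DOX tumor lay below every tumor without DOX. Across antibodies there was 1 exception, DOX/anti-PD-1 replicate 2, whose 122 TPM exceeded the 102 TPM of IgG1 replicate 1. The groups followed the same order as for Fam20a, with means of 30.25 ± 15.2, 78.1 ± 40.5, 139 ± 42.0 and 185 ± 38.8 TPM (SD, n = 3). DOX/IgG1 was below DOX/anti-PD-1 in every tumor, while the values of DOX/anti-PD-1 and IgG1, and those of IgG1 and anti-PD-1, overlapped. The log2 difference with DOX was -2.27 (SE 0.44) beside IgG1 and -1.34 (SE 0.37) beside anti-PD-1. Without DOX/IgG1 replicate 1, the lowest tumor, the former was -1.76 (SE 0.30).

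Serpini1 (ENSMUSG00000027834, chromosome 3, 75557547 to 75643495, plus strand) was the least abundant. It had 18.3, 40.1 and 26.25 TPM after IgG1 alone and 73.2, 77.7 and 24.3 TPM after anti-PD-1 alone. In DOX/IgG1 tumors it was listed at 0, 4.16 and 2.76 TPM, and in DOX/anti-PD-1 tumors at 28.0, 13.5 and 3.65 TPM. Beside IgG1 the tumors with and without DOX were apart. Beside anti-PD-1 they overlapped in 1 of 9 pairs of tumors, since DOX/anti-PD-1 replicate 1 (28.0 TPM) was above anti-PD-1 replicate 3 (24.3 TPM). The order of the groups was again the same, by medians of 2.76, 13.5, 26.25 and 73.2 TPM, and each group overlapped the next. The log2 difference with DOX was -3.37 (SE 0.63) beside IgG1, or -2.66 (SE 0.41) without replicate 1, in which the gene was listed at 0. It was -2.08 (SE 0.66) beside anti-PD-1.

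**Figure D1:**
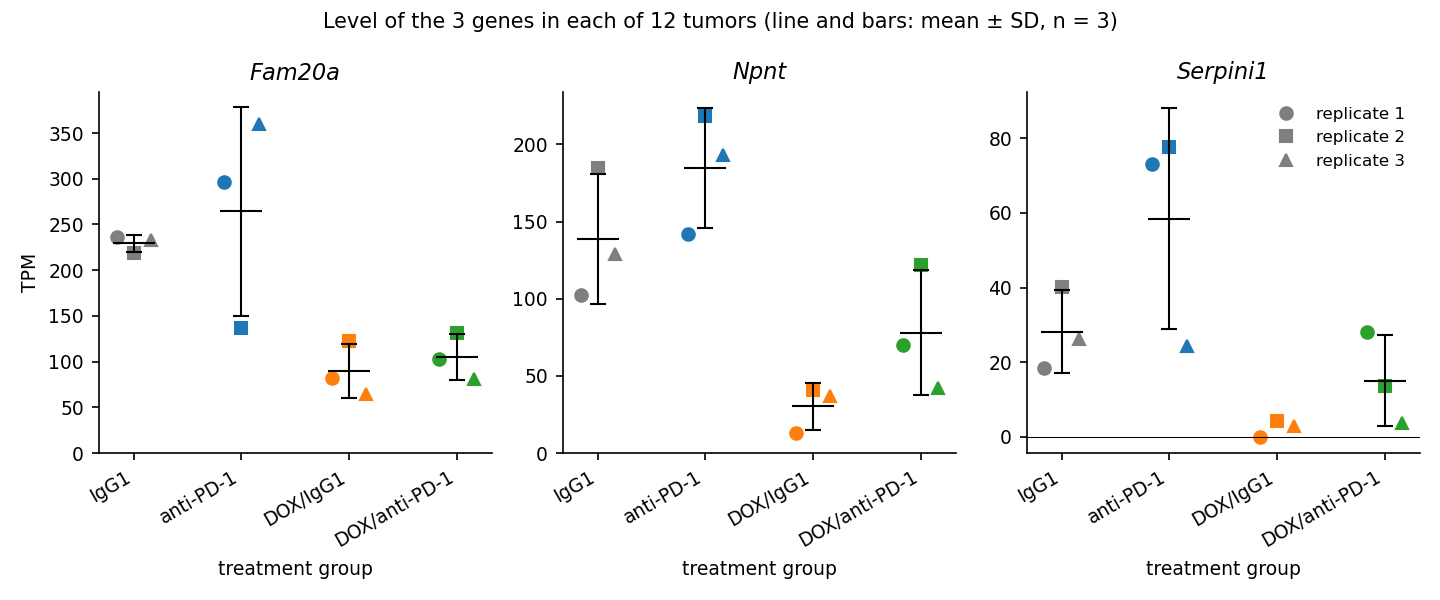
TPM of Fam20a, Npnt and Serpini1 in each tumor (1 symbol per tumor), by treatment group, with the mean and SD of 3 tumors in black, but with no mean or SD for Serpini1 in DOX/IgG1, where 1 tumor was listed at 0. For Fam20a the 6 tumors with DOX lie below the 6 without. For Npnt only DOX/anti-PD-1 replicate 2, and for Serpini1 only DOX/anti-PD-1 replicate 1, reaches into the range of the tumors without DOX.

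Tumor RNA is a mixture, so fewer cells of a type and less RNA per cell cannot be told apart in any of these values. The choice of the genes fixes their low values with DOX, and the following shares only say how common such values are. All 3 DOX/IgG1 tumors were below all 3 IgG1 tumors in 644 of 13874 genes tested (4.64%), Fam20a, Npnt and Serpini1 among them. All 3 DOX/anti-PD-1 tumors were below all 3 anti-PD-1 tumors in 528 of 13736 genes (3.84%), with Fam20a and Npnt among them. Fam20a is 1 of 18 genes of 14735 (0.122%) in which all 6 DOX tumors lay below the other 6.

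A log2 difference below -1 beside both antibodies, the size limit of the study, was reached by 66 of 13391 genes (0.493%). Ordered by the less negative of the 2 differences, Serpini1 was at place 8, Npnt at 28 and Fam20a at 38. Just inside the limit were Apoo-ps (-1.02 beside IgG1 and -1.25 beside anti-PD-1) and Spink5, an inhibitor of epithelial serine proteases (-1.01 and -1.46). Just outside were Tph1, the enzyme that starts serotonin synthesis (-1.24 and -0.99), and Bloc1s2, a subunit of a lysosome-sorting complex (-1.72 and -0.99). The selected genes were thus not the most extreme of the 66, and of the 3 Fam20a lay nearest the limit.

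**Figure D2:**
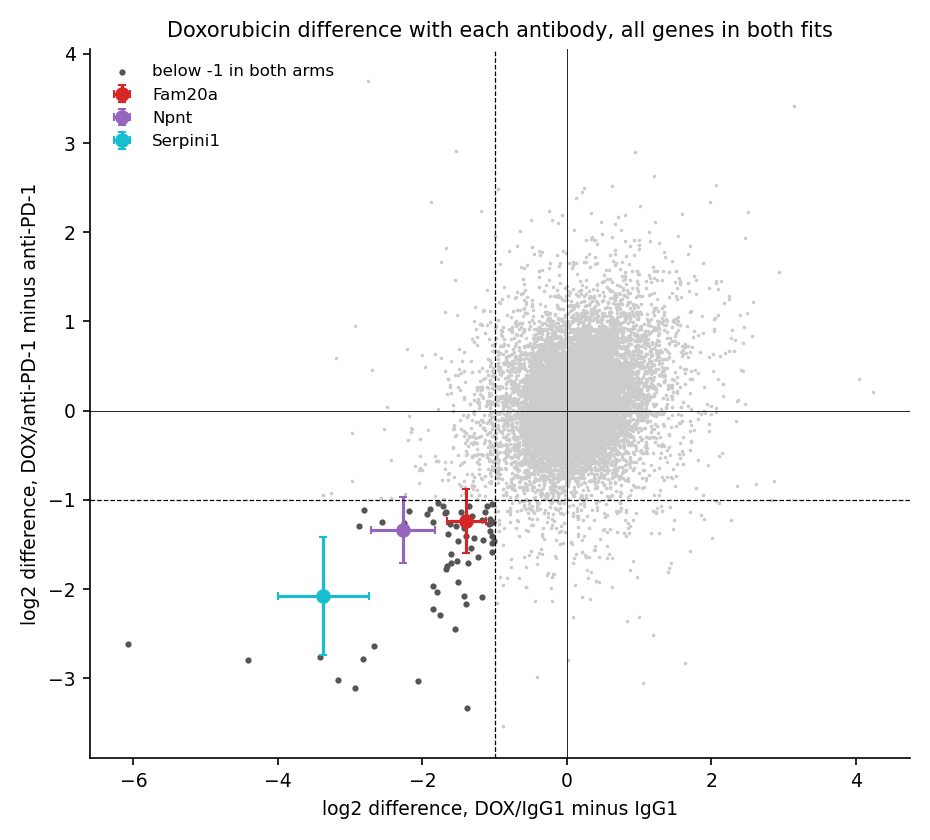
Each point is a gene, with its log2 difference with DOX beside IgG1 on the x axis and beside anti-PD-1 on the y axis, for 13391 genes tested in both arms. The dashed lines mark -1, the dark points are the 66 genes below it on both axes, and the colored points are the 3 selected genes with their SE.

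In the fit over both antibodies, both limits (limma adjusted p below 0.1, log2 difference beyond 1 in size) were passed by 7 lower genes of 14735 tested (0.0475%) and by 6 higher genes (0.0407%), counts from which nothing is read about the selected genes. At an unadjusted p below 0.05 there were 470 lower genes (3.19%) and 1281 higher genes (8.69%), and the median log2 difference of all genes was 0.12. These counts rest on DOX/IgG1 replicate 1. When that library was left out, limma called 55 lower and 243 higher genes of 14626 tested, and when IgG1 replicate 2 was left out it called 0 and 0. Scaling the libraries by the median of ratios brought the median of all genes from 0.12 to 0.01.

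The 3 genes did not vary together in all respects. Deviations of each tumor from its group mean had r = 0.69 between Npnt and Serpini1, 0.17 between Fam20a and Npnt, and -0.01 between Fam20a and Serpini1 (12 tumors in 4 groups, as a description). DOX/IgG1 replicate 1 was the lowest of all tumors for Npnt and Serpini1, while the lowest for Fam20a was DOX/IgG1 replicate 3. The r of 0.69 includes DOX/IgG1 replicate 1 and was not computed without it. Anti-PD-1 replicate 2 had the highest Npnt and Serpini1 of all tumors and the lowest Fam20a of the tumors without DOX. Anti-PD-1 replicate 3 showed the reverse for Fam20a and Serpini1, with the highest Fam20a of all tumors and the lowest Serpini1 of its group.

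**Figure D3:**
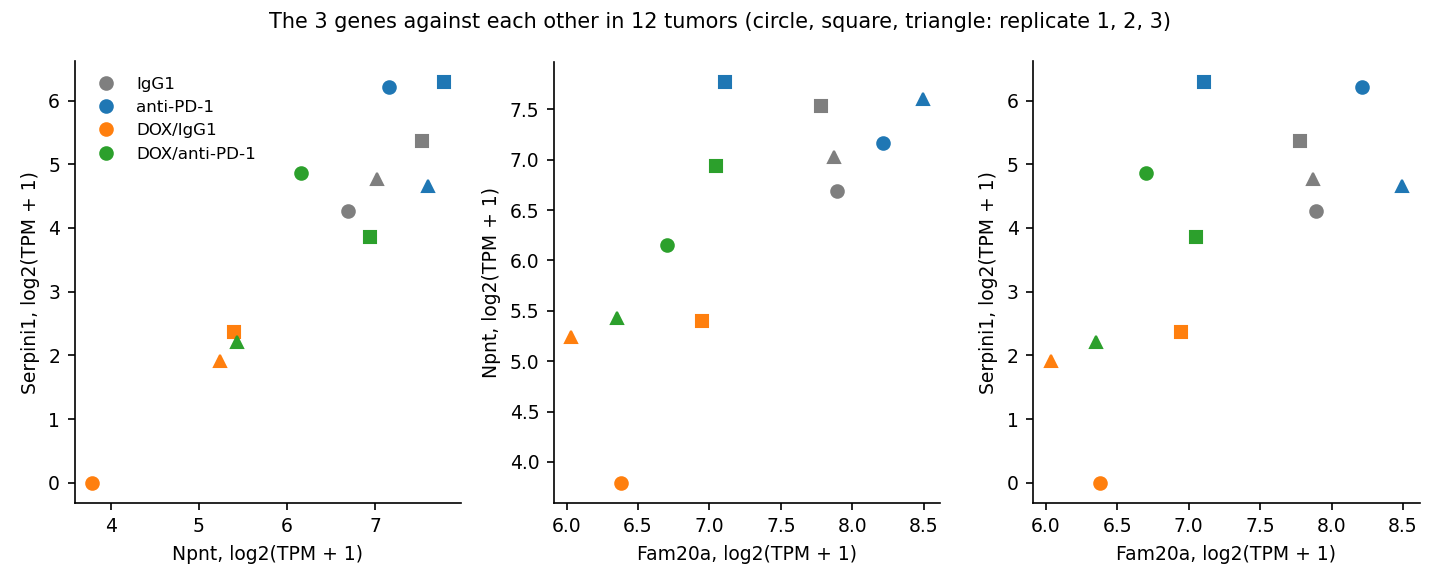
Levels of the 3 genes against each other, as log2(TPM + 1), with 1 symbol per tumor and color by group. Npnt and Serpini1 lie along a line from DOX/IgG1 replicate 1 to anti-PD-1 replicate 2, while Fam20a separates the tumors by DOX and orders them differently within groups.

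Among 14735 genes, those with the profile closest to Fam20a over the 12 tumors were Gin1 (r = 0.909), Slc6a17, a vesicular amino acid transporter (0.903), Tcn2, which carries vitamin B12 in blood (0.887), Unc5a, a netrin receptor (0.877), and Saa2, an acute phase protein (0.872). Within groups, by deviations from the group means, their r with Fam20a was 0.75, 0.70, 0.69, 0.77 and 0.65. Saa2 is so similar to Saa1 in sequence that their reads may have been split, and its values are uncertain. Npnt was at place 57 of this ranking (r = 0.760) and Serpini1 at place 135 (r = 0.696).

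Npnt was closest to Cpox, an enzyme of heme synthesis (r = 0.940), Tmc5, a membrane protein (0.940), Sec11c, a subunit of the signal peptidase that trims proteins entering the endoplasmic reticulum (0.934), Serpini1 itself (0.932) and Xbp1, a transcription factor of the unfolded protein response and of secretory cells (0.930). Serpini1 was closest to Zfp146, a zinc finger protein (0.941), Npnt (0.932), Tmem154 (0.929), Cpox (0.919) and Nucb2, the precursor of nesfatin (0.917). Within groups, r with Npnt was 0.92 for Cpox, 0.77 for Tmc5, 0.74 for Sec11c and 0.66 for Xbp1. The corresponding values with Serpini1 were 0.91 for Zfp146, 0.82 for Tmem154, 0.83 for Cpox and 0.77 for Nucb2. DOX/IgG1 replicate 1 was also the lowest tumor for Cpox (7.69 TPM), Zfp146 (17.8 TPM), Tmc5, Sec11c, Tmem154 and Nucb2, but not for Xbp1. None of these r was computed without it. Npnt and Serpini1 therefore shared Cpox and each other among their 5 closest genes, and neither had Fam20a there. Xbp1 had 886 TPM in IgG1, 929 in anti-PD-1, 323 in DOX/IgG1 and 618 in DOX/anti-PD-1 tumors on average, with all 6 DOX tumors below the other 6, as they also were for Sec11c. Cpox was 20.8, 20.7, 11.2 and 18.7 TPM, a narrower range than that of Npnt. These genes were found through their likeness to genes selected for low values with DOX, so their own DOX values carry no test either.

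The anti-PD-1 effect over both arms, with each arm counted equally, has weights orthogonal to those of the DOX comparisons that selected the genes. It is independent of them only if the groups have equal spread. The log2 SD was 0.43 in IgG1 and 0.88 in DOX/IgG1 for Npnt, and 0.55 and 1.26 for Serpini1. The choice of the genes can therefore bear on this effect as well, and its p-values are given as a description. Npnt was higher with anti-PD-1 by 0.90 on the log2 scale (SE 0.31, 95% interval 0.23 to 1.56), and the exact permutation test, which exchanges the antibody label within each arm (400 arrangements, two-sided, smallest possible p 0.005), gave p = 0.02. Serpini1 was higher by 1.57 (SE 0.50, interval 0.49 to 2.65, exact p = 0.035). For Fam20a the difference was 0.17 (SE 0.24, interval -0.34 to 0.69, exact p = 0.52), less than the spread between tumors. None of the 3 passed the adjustment over all genes, with limma adjusted p-values of 0.895, 0.838 and 1. Of 14735 genes tested, 0 were higher by both limits (0%) and 1 was lower (0.00679%), while 258 had an unadjusted p below 0.05 and a higher mean (1.75%) and 445 a lower mean (3.02%). The lower gene, named after its values were seen, was Bpifa2, a salivary protein gene listed at 0 in every tumor outside the DOX/IgG1 group. Without DOX/IgG1 replicate 1 the difference was 0.64 (SE 0.26) for Npnt and 1.21 (SE 0.45) for Serpini1.

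Within the arms the differences are given as a description, because each arm shares its tumors with the DOX comparisons that selected the genes. A choice for low values with DOX/IgG1 by itself raises the difference between the DOX groups. The choice for low values with DOX/anti-PD-1 lowers it, and the net direction is unknown. Among tumors without DOX, Npnt was higher with anti-PD-1 in 8 of 9 pairs of tumors and Serpini1 in 7 of 9, with log2 differences of 0.43 (SE 0.28) and 0.92 (SE 0.45), which ranged from 0.23 to 0.66 and from 0.64 to 1.46 with 1 tumor left out. Among tumors with DOX, Npnt was higher with anti-PD-1 in 9 of 9 pairs, by 1.37 (SE 0.51), and Serpini1 in 8 of 9 pairs, by 2.22 (SE 0.82). Fam20a was higher in 6 of 9 pairs in each arm, by 0.09 (SE 0.33) and 0.25 (SE 0.30), and its sign without DOX depended on anti-PD-1 replicates 1 and 3. Without DOX/IgG1 replicate 1 the difference among DOX tumors was 0.86 (SE 0.42) for Npnt and 1.51 (SE 0.72) for Serpini1. The DOX difference beside anti-PD-1 minus that beside IgG1 was 0.16 (SE 0.48) for Fam20a, 0.93 (SE 0.62) for Npnt and 1.29 (SE 1.00) for Serpini1, values that contain the selected differences and were not tested. Without DOX/IgG1 replicate 1 these values were 0.12 (SE 0.52), 0.43 (SE 0.52) and 0.58 (SE 0.90).

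Pdcd10 starts 641 bases from Serpini1 in RefSeq and 691 in GENCODE, and had 99.5, 129 and 137 TPM in IgG1, 90.6, 131 and 134 TPM in anti-PD-1, 87.9, 138 and 189 TPM in DOX/IgG1 and 119, 141 and 146 TPM after DOX/anti-PD-1. Its groups overlapped throughout, and its log2 difference with DOX over both antibodies was 0.17 (SE 0.20, limma adjusted p = 0.775), in a range of 0.04 to 0.31 with 1 tumor left out. Prkar1a, a regulatory subunit of protein kinase A, ends 93 bases from the end of Fam20a on the other strand and differed by 0.39 (SE 0.27), in a range of 0.20 to 0.54 with 1 tumor left out. On the far sides of Npnt, at 40057 and 31461 bases, Tbck differed by 0.01 (SE 0.19) and Gstcd by -0.10 (SE 0.30), less than the spread between tumors. The remaining neighbors, 1700012B07Rik beside Fam20a and Gm29133 beside Serpini1, were listed at 0 in 7 and 10 of the tumors, with highest values of 3.03 and 1.93 TPM. The former was above 0 after IgG1 alone and at 0 throughout the DOX/anti-PD-1 group, and differed by -0.65 (SE 0.37, limma adjusted p = 0.522), and the latter was not tested. In the annotation a snRNA gene on the opposite strand (Gm23196) lies within Npnt, and an unclassified transcript on the same strand (Gm37672) within Serpini1. Neither was listed.

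Genes around the 3 proteins were then compared over both antibodies with limma, in 7 lists. None of the 61 tested genes of the lists passed both limits. At an unadjusted p below 0.05, 5 were lower and 13 higher, beside the shares of 3.19% and 8.69% among all genes. With median-of-ratios scaling these counts were 8 lower and 8 higher, beside shares of 6.08% lower and 5.44% higher among all genes with the same scaling. The counts also rested on DOX/IgG1 replicate 1. With that tumor left out, 9 of the genes passed both limits (2 lower, 7 higher), 5 were lower and 20 higher at an unadjusted p below 0.05, and the shares among all genes were 0.376% called lower, 1.66% called higher, 3.52% lower and 11.9% higher at an unadjusted p below 0.05. Leaving out a library after its values were seen gives a smaller set of tumors, not a better one, and both values are given.

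The kinase that FAM20A activates, Fam20c, had 15.1, 33.9 and 26.3 TPM in IgG1, 16.05, 18.95 and 22.9 TPM in anti-PD-1, 4.05, 20.95 and 37.6 TPM in DOX/IgG1 and 14.9, 16.8 and 17.45 TPM after DOX/anti-PD-1. The groups overlapped, and the log2 difference with DOX was -0.41 (SE 0.40, limma adjusted p = 0.724), or 0.01 (SE 0.25) without DOX/IgG1 replicate 1. Its level was below that of Fam20a in every tumor, most narrowly in DOX/IgG1 replicate 3. Of the 9 tested relatives and secretory pathway kinases, 0 were lower and 1 was higher at an unadjusted p below 0.05, and their median was 0.43 beside 0.12 for all genes. The number of higher genes was 0 without IgG1 replicate 1 and 3 without DOX/IgG1 replicate 1. Fam198b, a Golgi protein related to the FAM20 kinases, was the higher gene, at 0.85 (SE 0.39, adjusted p = 0.410). It had 13.6, 82.7 and 56.4 TPM in the DOX/IgG1 tumors and 7.89 to 20.7 TPM in the tumors without DOX. The DOX/anti-PD-1 tumors, at 21.4, 11.9 and 23.75 TPM, overlapped the latter, and the difference was 1.43 (SE 0.63) beside IgG1 and 0.28 (SE 0.34) beside anti-PD-1. Over both antibodies it was 1.23 (SE 0.28, adjusted p = 0.0578) without DOX/IgG1 replicate 1 and 0.60 without DOX/IgG1 replicate 2. Fam69a, the most abundant relative, differed by 0.55 (SE 0.44), or by 0.89 (SE 0.39, adjusted p = 0.289) without DOX/IgG1 replicate 1 and 0.27 without IgG1 replicate 1.

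Of 15 secreted phosphoproteins, known or likely substrates of FAM20C, 9 were tested, and 3 were lower and 1 higher at an unadjusted p below 0.05, with a median of -0.48. The lower genes were caseins, the main milk proteins. Csn3, the most abundant gene of the list, ranged from 4472 to 9221 TPM without DOX and had 812, 3071 and 2403 TPM with DOX/IgG1 and 5652, 7864 and 2669 TPM with DOX/anti-PD-1, so the latter overlapped the tumors without DOX. Its log2 difference was -1.17 (SE 0.37, limma adjusted p = 0.272), or -0.88 (SE 0.32, adjusted p = 0.205) without DOX/IgG1 replicate 1. Csn1s1 differed by -1.73 (SE 0.44, adjusted p = 0.217), and by -2.10 (SE 0.36, adjusted p = 0.0174) without DOX/IgG1 replicate 1. In that replicate Csn1s1 was at 89.0 TPM, against 9.39 and 33.2 TPM in the other DOX/IgG1 tumors. Csn1s2a differed by -1.12 (SE 0.46), at levels of at most 24.0 TPM and with 2 of the DOX/IgG1 tumors listed at 0. Beside anti-PD-1 the difference was 0.46 (SE 0.46), with 2.61, 4.57 and 6.30 TPM with DOX and 2.28, 1.97 and 4.73 TPM without. Over both antibodies it was -1.02 (SE 0.49, adjusted p = 0.338) without DOX/IgG1 replicate 1 and -0.72 (SE 0.39) without IgG1 replicate 3, in both cases no longer with an unadjusted p below 0.05. Spp1, not a casein, differed by -0.42 (SE 0.36, adjusted p = 0.681) in all tumors. Without DOX/IgG1 replicate 1, its highest tumor at 1590 TPM, it differed by -0.77 (SE 0.26, adjusted p = 0.175), with an unadjusted p below 0.05.

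Amtn, which encodes the enamel protein amelotin, was the higher gene of this list. It had 8.09, 16.4 and 23.3 TPM in IgG1 and 3.31, 10.8 and 19.45 TPM after anti-PD-1 alone, and 49.2, 49.55 and 41.2 TPM after DOX/anti-PD-1. The DOX/IgG1 tumors had 2.29, 501 and 426 TPM, so replicate 1 was below every other tumor and the other 2 were above all. The log2 difference was 2.37 (SE 0.97, adjusted p = 0.362) with replicate 1 and 3.56 (SE 0.36, adjusted p = 0.00142) without it. Enam, Amelx, Ambn, Ibsp, Dspp and Mepe were not tested, with values of at most 1.5 TPM in any tumor.

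The receptor subunits of nephronectin were both present. Itga8 had 31.6 to 75.7 TPM without DOX and 23.8 to 63.9 TPM with it, a log2 difference of -0.18 (SE 0.26, limma adjusted p = 0.818), in a range of -0.38 to -0.04 with 1 tumor left out. The sign differed between the arms, with -0.60 (SE 0.41) beside IgG1 and 0.23 (SE 0.27) beside anti-PD-1. Itgb1, which pairs with many α chains, was the most abundant of the 8 integrin subunits, with a mean of 566 TPM, and differed by 0.08 (SE 0.16), or by -0.04 with median-of-ratios scaling. The median of the 8 genes was 0.08, and 1 of them, Itgav, the chain of several RGD-binding integrins, was higher at an unadjusted p below 0.05, by 0.68 (SE 0.25, adjusted p = 0.324).

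Of 7 tested relatives and anchors of nephronectin, 2 were lower at an unadjusted p below 0.05, and the median was -0.08. The number of lower genes fell to 0 without DOX/IgG1 replicate 2. Fras1, which holds nephronectin in embryonic basement membranes, had 1.19 to 3.94 TPM without DOX, 1.81, 0.05 and 1.06 TPM with DOX/IgG1 and 1.48, 2.37 and 0.10 TPM with DOX/anti-PD-1 (log2 difference -0.90, SE 0.38, adjusted p = 0.369). Tnc, a matrix glycoprotein with an RGD motif, differed by -1.05 (SE 0.42, adjusted p = 0.354), and by -0.78 without IgG1 replicate 1. Without DOX/IgG1 replicate 1 it differed by -1.38 (SE 0.36, adjusted p = 0.0944). Fn1, the most abundant RGD ligand of the list at a mean of 434 TPM, differed by 0.15 (SE 0.27), or by -0.11 without that replicate. Egfl6, the paralog of Npnt, was at most 1.91 TPM in any tumor.

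Of 21 structural genes of the basement membrane, 0 were lower and 7 were higher at an unadjusted p below 0.05 (Lama3, Col4a1, Col4a2, Nid1, Hspg2, Agrn and Col18a1), and the median was 0.31, beside 0.12 for all genes. With median-of-ratios scaling 0 were lower and 4 higher. Col4a1, the most abundant, differed by 0.52 (SE 0.20, limma adjusted p = 0.344), and Col4a2, whose chain assembles with it into collagen IV, by 0.60 (SE 0.20). Lama3, a chain of epithelial laminin, was higher by 1.03 (SE 0.28, adjusted p = 0.221), Nid1, which links laminin to collagen IV, by 0.87 (SE 0.24, adjusted p = 0.220), and Hspg2, which encodes perlecan, by 0.72 (SE 0.26). Agrn differed by 0.51 (SE 0.20) and Col18a1 by 0.80 (SE 0.26). Without DOX/IgG1 replicate 1, Lama3 (1.15, adjusted p = 0.0735), Nid1 (1.07, adjusted p = 0.0177) and Col4a3 (1.59, adjusted p = 0.0552) passed both limits, the last of which differed by 1.06 (SE 0.53, adjusted p = 0.457) in all tumors. In the same fit Col4a1 (0.45, SE 0.21) and Agrn (0.39, SE 0.20) no longer had an unadjusted p below 0.05.

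Of the plasminogen activators and their receptors, 6 were tested, 0 were lower and 3 higher at an unadjusted p below 0.05, and the median was 0.53. Plat, the protease that neuroserpin inhibits, had 15.2, 12.1 and 21.2 TPM in IgG1, 8.62, 11.2 and 18.1 TPM in anti-PD-1, 9.76, 26.3 and 41.9 TPM in DOX/IgG1 and 13.7, 16.7 and 34.4 TPM after DOX/anti-PD-1. The groups overlapped, and the log2 difference was 0.57 (SE 0.35, limma adjusted p = 0.540), or 0.85 (SE 0.29, adjusted p = 0.178) without DOX/IgG1 replicate 1 and 0.35 without DOX/IgG1 replicate 3. Plau, the related urokinase, was 8.29 to 13.7 TPM in the 6 tumors without DOX and 15.3 to 43.1 TPM in the 6 with it, and thus higher in 6 of 6. The share of all genes apart upward in this way was not computed. Its log2 difference was 1.27 (SE 0.24), and its adjusted p of 0.102 missed the limit, while without DOX/IgG1 replicate 1 it passed (1.43, SE 0.22, adjusted p = 0.0114). Lrp1, a clearance receptor for serpin and protease complexes, differed by 0.94 (SE 0.26, adjusted p = 0.230), or 1.13 (adjusted p = 0.0428) without that replicate, and Vldlr by 0.50 (SE 0.19). Of 5 serpins related to neuroserpin 1 was tested, Serpine2, which differed by 0.39 (SE 0.49), less than the spread between tumors. Serpini2 and Serpina5 were listed at 0 in every tumor.

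**Figure D4:**
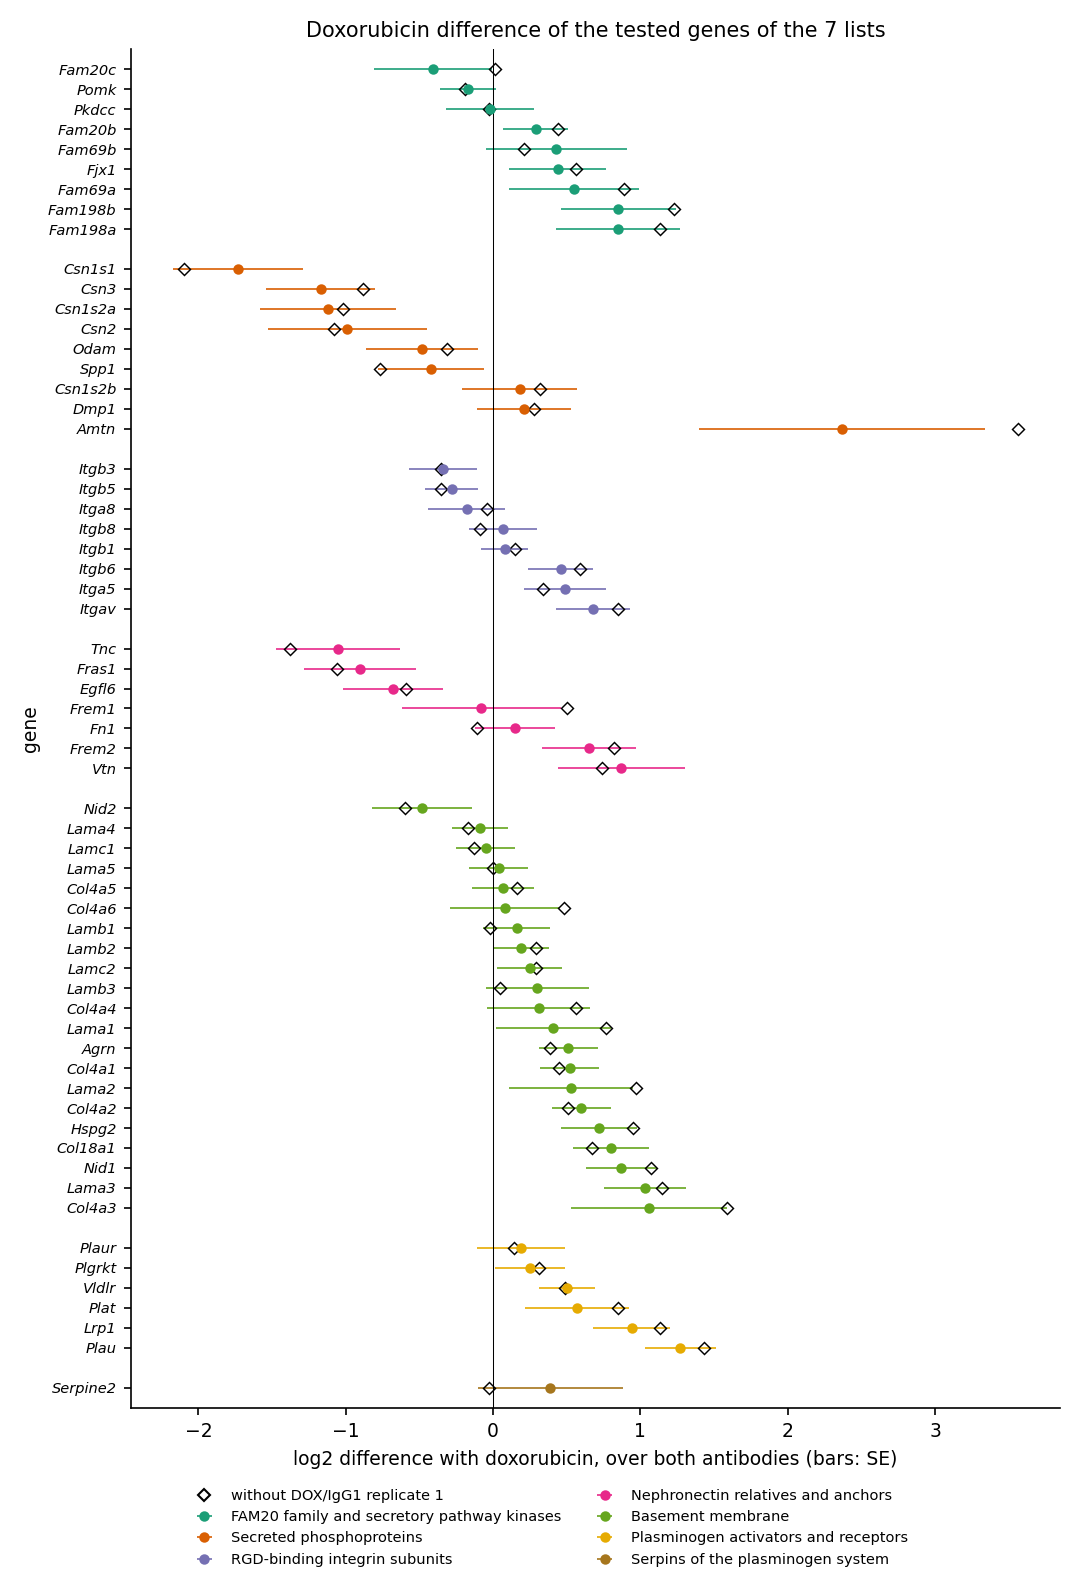
Log2 difference with DOX over both antibodies for the tested genes of 7 lists, with SE as bars (12 tumors), and as open diamonds the same difference without DOX/IgG1 replicate 1. Most basement membrane and plasminogen activator genes lie right of 0 and most caseins left of it, and for Amtn, Fam20c and Col4a3 the diamond lies far from the filled point.

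Marker genes of cell types were counted by the same unadjusted p, beside which the shares of all genes were 3.19% lower and 8.69% higher. The luminal sum was 4138, 2986 and 3610 TPM in IgG1, 3256, 2588 and 2848 TPM in anti-PD-1, 2479, 3553 and 4015 TPM in DOX/IgG1 and 3507, 3295 and 2599 TPM after DOX/anti-PD-1, and the groups overlapped. Of the 10 luminal genes, 3 were lower (Epcam, Cldn7 and Muc1) and 1 higher (Cldn4) at an unadjusted p below 0.05, with a median of -0.21. The basal sum, led by Acta2, was 180 to 416 TPM without DOX and 227 to 962 TPM with it, with 0 of 8 genes past an unadjusted p of 0.05. Fibroblast (1 of 8 higher), endothelial (0 of 6), macrophage (0 of 6 listed), adipocyte (1 of 7 higher) and skeletal muscle (0 of 6) markers had sums that overlapped between all tumors with and all without DOX. Beside anti-PD-1 alone, every tumor with DOX was above every tumor without it in the fibroblast sum (1092, 1437 and 1609 against 945, 860.4 and 709.7 TPM), the adipocyte sum (1070.0, 306.5 and 488.7 against 194, 144 and 192.5 TPM), the basal sum (373, 445 and 569.5 against 198, 299 and 282 TPM) and the neural sum (28.0, 19.5 and 53.7 against 19.1, 14.8 and 16.99 TPM). The sums of the other lists overlapped beside anti-PD-1, and beside IgG1 the fibroblast, adipocyte, basal and neural sums overlapped. How many of all genes were apart upward in this way was not computed, so nothing is read from these sums. T cell markers, led by Cd3e, summed to 2.68 to 20.3 TPM without DOX and 5.76 to 44.0 TPM with it, and 1 of 4 tested was higher. The median difference was 0.97 for the adipocyte and 0.82 for the T cell markers. B cell markers summed to at most 3.59 TPM, and of 3 tested neural markers, led by Mbp, 2 were higher.

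Salivary gland markers, led by Amy1, summed to 52.1, 98.0 and 113 TPM in the DOX/IgG1 tumors, above the 5.40 to 23.3 TPM of the other 9, and 3 of 4 tested were higher at an unadjusted p below 0.05, beside 8.69% of all genes. DOX/IgG1 was also the group in which Fam20a, Npnt and Serpini1 were lowest. Bpifa2 was listed at 0 in all tumors of the other groups. The part of these cell types in the values of the 3 selected genes was not tested.

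**Figure D5:**
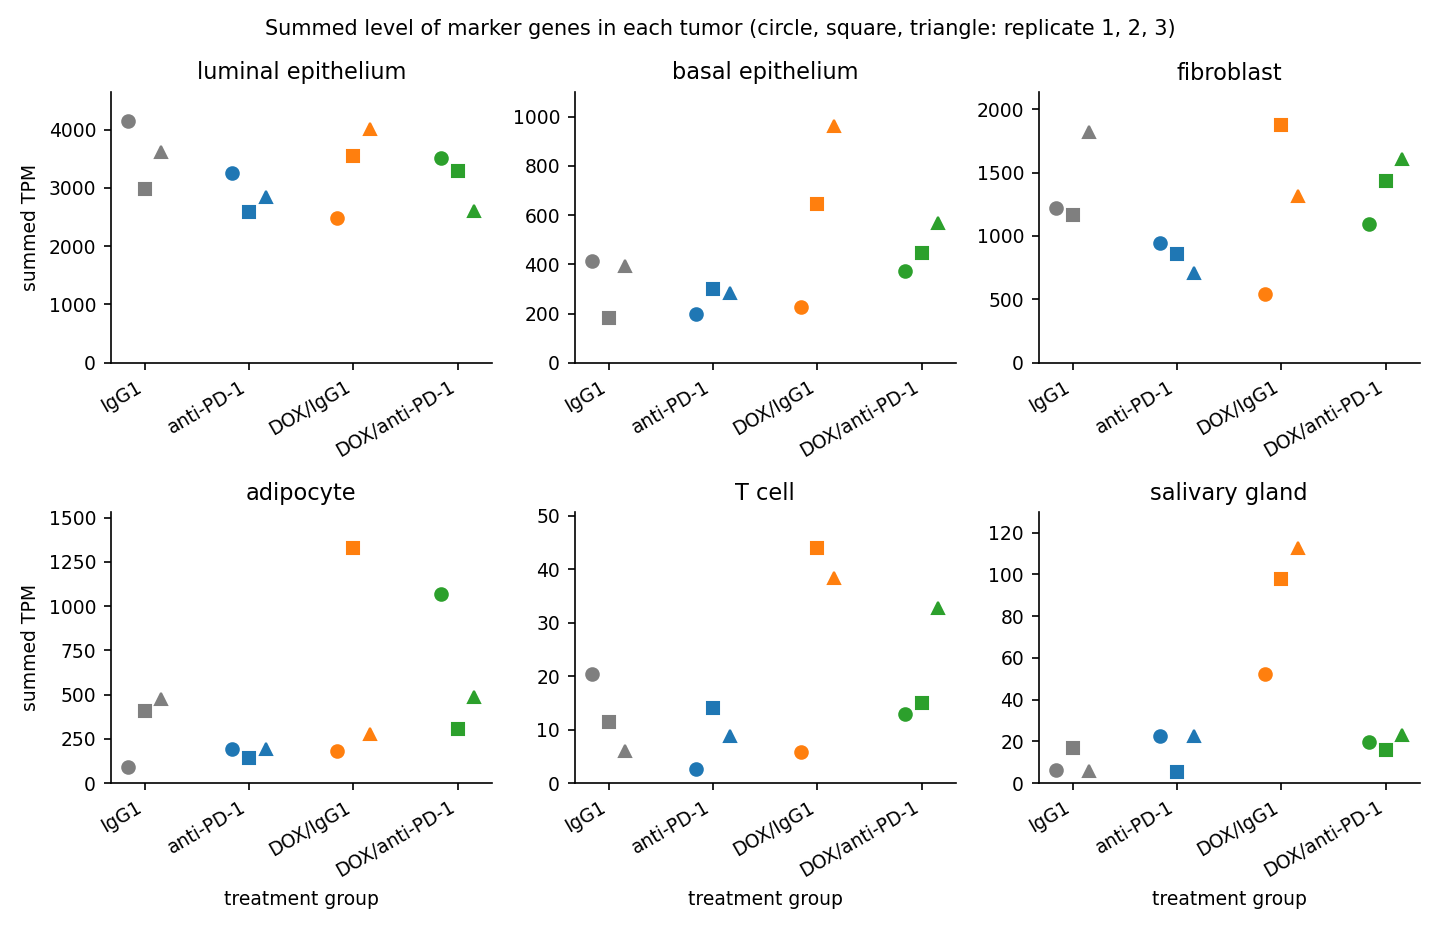
Summed TPM of 6 marker lists in each tumor, by group. Luminal sums overlap between all groups, and salivary gland sums are 52.1 to 113 TPM in the DOX/IgG1 tumors and at most 23.3 TPM elsewhere.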

How the data were processed

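RNA of 12 PyMT tumors was sequenced, 3 in each of 4 groups named in the labels. By the submitters' notes, the reads were aligned to mm10 with STAR and quantified with RSEM. What the authors deposited are values of log2(TPM + 1), with decimal commas, of 21960 genes, and the files hold no counts, so the depth is unknown. The log2 step was reversed to print TPM. Coordinates are from GENCODE vM21 and promoters from RefSeq.

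Differences were computed with limma 3.58.1 (R 4.3.3) on log2(TPM + 1), moderated along the trend of variance with level. Its p-values were two-sided and were adjusted by Benjamini-Hochberg over all genes that reached 1 TPM in at least 3 tumors of the fit. A call needed an adjusted p below 0.1 and a log2 difference beyond 1 in size. Differences between 2 groups were fitted on their 6 tumors, and the DOX and anti-PD-1 effects over both arms on all 12. The exact permutation test of the anti-PD-1 effect over both arms (Python 3.11.15, scipy 1.17.1) was two-sided.

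Fam20a, Npnt and Serpini1 are the genes the study lists as lower with DOX both with and without anti-PD-1. These genes, the 7 lists by role and the 11 lists of cell type markers were chosen with earlier results of these data known. The DOX differences of the 3 genes and the interaction were described and not tested. Their planned tests of anti-PD-1 within an arm were run but are not reported, because the choice of the genes bears on these differences. From 1 list by role a gene was removed after the fit, and the list totals are without it. Genes named are the 3, their neighbors, the 5 with the closest profile to each, the genes next to the size limit and, in each list, those with an unadjusted p below 0.05, the most abundant and the direct partners. Bpifa2, Col4a3, Egfl6, Frem1, Itgb8, Lamb1, Lama5, Spp1 and the genes of the lists that were not tested were named after their values were seen.

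Alternatives were a pseudocount of 0.1, no filter on low values, scaling by the median of ratios, all 12 tumors in the fit of a pair, the replicate number as a block and leaving out each tumor in turn. The alternatives for single list genes and neighbors, for the counts of all genes beyond the size limit and with an unadjusted p below 0.05 and for the median of all genes were chosen after seeing the data. The steps were tested on simulated data.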

Additional observations from a re-analysis of the deposited data

How the results depend on the processing

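The DOX differences of the selected genes kept their sign under every alternative run on them. The genes were chosen for that sign, so this is a description and no test. Leaving out each tumor in turn, that of Fam20a ranged from -1.64 to -1.19 beside IgG1 and from -1.65 to -0.96 beside anti-PD-1. For Npnt the ranges were -2.57 to -1.76 and -1.72 to -0.97, and for Serpini1 -3.84 to -2.66 and -2.69 to -1.37. With a pseudocount of 0.1 the Serpini1 difference beside IgG1 was -4.65 instead of -3.37, because 1 tumor is listed at 0.

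The anti-PD-1 effect over both arms ranged from 0.03 to 0.38 for Fam20a, from 0.64 to 1.08 for Npnt and from 1.21 to 1.93 for Serpini1 with 1 tumor left out. Under every alternative its limma adjusted p lay between 0.456 and 1. The Fam20a difference between anti-PD-1 and IgG1 alone changed sign, to -0.04 without anti-PD-1 replicate 1 and -0.18 without anti-PD-1 replicate 3, in a range of -0.18 to 0.51.

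The counts depended on single tumors. Of all genes, 7 were called lower with DOX, but 3 with a pseudocount of 0.1, 14 with median-of-ratios scaling and 0 to 55 with 1 tumor left out. The 6 called higher became 3 with a pseudocount of 0.1 and 0 to 243 with 1 tumor left out. Both maxima came from leaving out DOX/IgG1 replicate 1. In the lists, the genes with an unadjusted p below 0.05 numbered 8 lower and 8 higher with scaling, instead of 5 and 13, and 3 to 6 lower and 10 to 20 higher with 1 tumor left out. The called list genes ranged from 0 to 9. The 66 genes below -1 beside both antibodies became 50 to 92.

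Among the list genes and neighbors that the alternatives covered, the sign of the DOX difference changed for 6 that lay within their SE or close to it. Itgb1 was -0.04 with scaling. Without DOX/IgG1 replicate 1, Fn1 was -0.11 (range 0.31 at the other end), Serpine2 was -0.03 (range up to 0.66) and Fam20c was 0.01 (range down to -0.73). Tbck was -0.10 with scaling, and -0.06, -0.03, -0.07 and -0.06 without IgG1 replicate 1, anti-PD-1 replicate 1, DOX/IgG1 replicate 2 and DOX/anti-PD-1 replicate 2, in a range of -0.07 to 0.10. Gstcd was 0.01 without IgG1 replicate 2, 0.01 without DOX/IgG1 replicate 1 and 0.15 without DOX/anti-PD-1 replicate 3, in a range of -0.23 to 0.15. Of the list genes not named above, Frem1 changed from -0.08 to 0.50, Itgb8 from 0.07 to -0.09, Lamb1 from 0.16 to -0.02 and Lama5 from 0.04 to -0.00 without DOX/IgG1 replicate 1.

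With the replicate number as a block (replicate block), 5 genes were called lower and 4 higher. The anti-PD-1 effect of Npnt over both arms kept its 0.90, with an SE of 0.24 instead of 0.31. The labels name nothing that tumors of the same number share, and they were treated as unpaired. After group means were removed, r between tumors of the same number was -0.096 to 0.134 in 18 pairs, against -0.19 to 0.113 in 36 pairs of different number. It was above 0.1 in 4 of the 18 pairs, and among the 36 pairs only at 0.113, 0.108 and 0.105. Closest to a tumor of their own number were 8 of 12 tumors, although each had more tumors of another number to be close to. Whether tumors of a number share something was not tested.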
